A study of Homo sapiens with 6 samples.

Results

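The HIF oxygen-sensing regulators described here are 10 genes taken by name from the 38100 genes of the count table. They are the HIF-α subunits HIF1A, EPAS1 and HIF3A, the partner subunits ARNT and ARNT2, the prolyl hydroxylases EGLN1, EGLN2 and EGLN3, the ubiquitin ligase subunit VHL and the asparaginyl hydroxylase HIF1AN. Their mRNA was measured by poly-A RNA sequencing in HK2 cells, an immortalised line of human proximal tubular epithelial cells. All 6 samples received TGF-β1, a profibrotic cytokine, and differed in the adenovirus given with it. The 3 AdCtrl samples carried an empty adenovirus and the 3 AdSIRT4 samples an adenovirus expressing SIRT4, a sirtuin known mainly as a mitochondrial deacylase. The labels give the genotype of all samples as WT. The comparison asks how gene expression differs when SIRT4 is overexpressed under TGF-β1, and no sample without TGF-β1 or without virus enters it. The cell-line labels run from HK2 to HK7 over the samples, whereas the titles and the study's methods name HK2 throughout. The labels do not state that the replicates were separate cultures, and the study's reporting checklist describes replicates of cell experiments as technical, so p-values measure only the spread between these samples.

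HIF is a dimer of an oxygen-labile α subunit and a stable ARNT subunit that binds DNA at hypoxia response elements. When oxygen is present, EGLN enzymes use it together with 2-oxoglutarate to hydroxylate prolines of HIF-α, and VHL then recruits a ligase that marks the subunit for the proteasome. HIF1AN hydroxylates an asparagine and so blocks binding of the coactivators CREBBP and EP300. EGLN1 and EGLN3 are themselves known HIF targets, a feedback loop, and in the kidney, tubular cells are known to express mainly HIF1A. Most of this control acts on protein and its hydroxylation, which were not measured here, so every value is a level of mRNA.

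The core of a hypoxia response element reads ACGTG or GCGTG, and the promoters were searched for both cores because EGLN1 and EGLN3 are targets of the factor they restrain. RefSeq promoter sequences (GRCh38.p14) were matched for 8 of the 10 genes, and the search covered both strands of the 250 bases before each start. ACGTG occurred in 18.5% of all 35116 promoters, GCGTG in 32.2% and either core in 43.2%. EGLN1 held ACGTG with its first base 13 bases before the start. EGLN2 held CACGTG, a palindrome that reads as ACGTG on either strand, so its 2 overlapping matches are a single site. Among the other members with a core, EPAS1 held GCGTG once and HIF3A held it 3 times, whereas neither core was found in this window of ARNT, EGLN3 or HIF1AN. ARNT2 and VHL were not matched. The sequences below run 5′ to 3′ on the gene's strand with the core in capitals. For EGLN1, the member with the smallest p below, the whole stretch before the start is given, and for EGLN2 and EPAS1 a window around the core.
EGLN1 (chr1:231422288-231422537, minus strand): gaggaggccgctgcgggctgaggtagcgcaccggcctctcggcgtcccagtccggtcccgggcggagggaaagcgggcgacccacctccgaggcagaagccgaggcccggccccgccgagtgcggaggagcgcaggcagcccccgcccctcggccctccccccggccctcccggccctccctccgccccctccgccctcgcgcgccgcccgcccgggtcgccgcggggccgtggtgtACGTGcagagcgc
EGLN2 (chr19:40799127-40799161, plus strand): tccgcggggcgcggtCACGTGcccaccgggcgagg
EPAS1 (chr2:46297275-46297309, plus strand): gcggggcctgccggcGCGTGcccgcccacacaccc

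Total counts ran from 42102861 to 53677241 in AdCtrl and from 41537353 to 85684748 in AdSIRT4. SIRT4 itself had 31, 47 and 57 counts in AdCtrl and 1996, 7995 and 6827 in AdSIRT4, a log2 fold change of 6.36 (edgeR adjusted p = 0.00801). AdSIRT4 replicate 1 stood apart from the other libraries. Relative to the other 2 AdSIRT4 libraries, short genes were higher and long genes lower in it, with a Spearman rank correlation of -0.585 between deviation and length over the 17720 genes tested, a description since all share 1 library. Its median deviation was 0.669 on the log2 scale for the 10% of genes with the least length (1.32 kb at most) and -0.745 for the 10% with the greatest (8.82 kb at least), so results are given with and without it. Gene lengths here and below were inferred from the deposited values, not taken from an annotation. The epithelial markers PAX8 and GGT1 averaged 233 and 237 CPM (counts scaled to library size) in AdCtrl. KRT8, KRT18, CDH2, EPCAM and KRT19 of the same list averaged 833, 339, 234, 126 and 39.5 CPM there. CDH1, PAX2, SLC34A1 and CUBN were tested but averaged only 0.66, 1.28, 0.71 and 0.26 CPM. LRP2, AQP1 and ANPEP, which mark the differentiated proximal tubule, were too low to test. Of the marker lists of tubular epithelium, fibroblasts, endothelium and leukocytes, 11 of 14, 4 of 7, 1 of 6 and 2 of 6 genes were testable, and none passed an unadjusted p of 0.05. Their summed levels in AdCtrl and AdSIRT4 were 2009 to 2067 and 1899 to 2465 CPM, 41.7 to 45.2 and 40.0 to 40.8 CPM, 0.425 to 0.447 and 0.257 to 0.615 CPM, and 34.4 to 39.8 and 38.6 to 49.5 CPM. COL3A1 and CD3E were at 0 counts in all samples.

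Levels can be compared between genes only per length, for which FPKM (fragments scaled to gene length and library size) was used. In AdCtrl, HIF1A was the most abundant member at 202 ± 18.2 FPKM (SD, n = 3), followed by EPAS1, which encodes HIF-2α, at 77.3 ± 7.37. EGLN2 (25.3 ± 0.8), EGLN1 (16.1 ± 0.403) and VHL (15.5 ± 0.31) formed the middle of the order. ARNT (10.2 ± 0.609) and HIF1AN (7.64 ± 0.26) came next, and EGLN3 (2.20 ± 0.098) and ARNT2 (0.758 ± 0.0617) were the lowest members detected in AdCtrl. The order was the same in AdSIRT4. Sample ranges of neighbours in this order did not overlap in AdCtrl, and in AdSIRT4 those of ARNT and HIF1AN overlapped. HIF1A mRNA thus exceeded that of its main partner ARNT and of each EGLN in every sample. HIF3A had 0 counts in the 3 AdCtrl libraries and 0, 3 and 2 in AdSIRT4, where 3 counts correspond to 0.0350 to 0.0722 CPM, so no fold change is given.

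**Figure D1:**
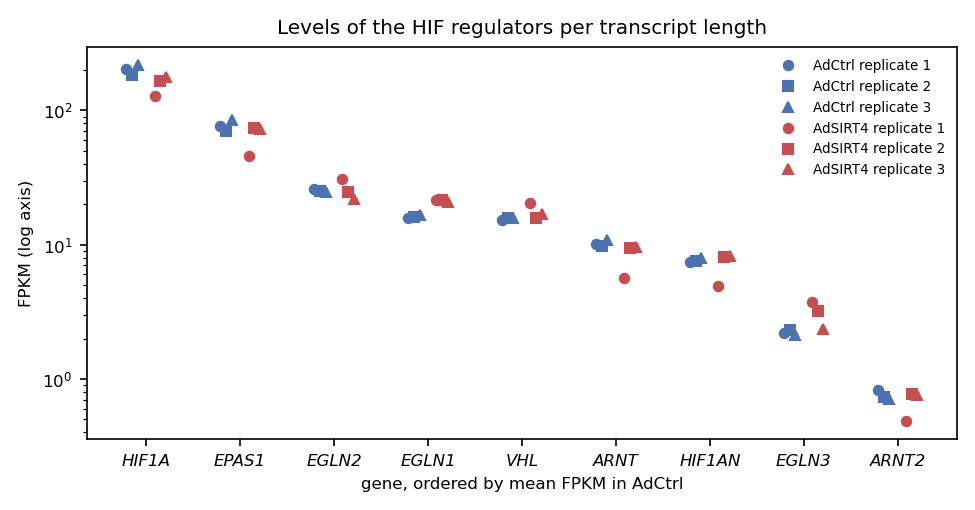
FPKM on a log axis of the 9 members with more than a few counts, each point being 1 sample (blue AdCtrl, red AdSIRT4, n = 3 each), ordered by mean in AdCtrl. The order from HIF1A at 202 FPKM to ARNT2 at 0.758 FPKM is seen in both groups, and AdSIRT4 replicate 1 lies below the others for HIF1A, EPAS1, ARNT, HIF1AN and ARNT2.

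All members but HIF3A, 9 of the 10, passed the filter on low counts. In edgeR's quasi-likelihood test over all genes no member reached an adjusted p of 0.05, which 0.0113% of tested genes did. At an unadjusted p of 0.05, EGLN1 and EGLN3 were higher in AdSIRT4 and HIF1A was lower, against backgrounds of 4.43% of genes higher and 3.5% lower. The 2 groups of samples did not overlap for EGLN1 (higher) and for HIF1A and ARNT (lower), where 9.66% of genes were higher without overlap and 9.77% lower. The median log2 fold change over the 9 was -0.09, beside 0.02 over all genes tested. Without AdSIRT4 replicate 1, EGLN1 was called higher and HIF1A lower at an adjusted p of 0.05, with 3.37% of genes called higher and 3.34% lower in that fit. DESeq2 on all samples called EGLN1, where it called 0.542% of genes higher.

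**Figure D2:**
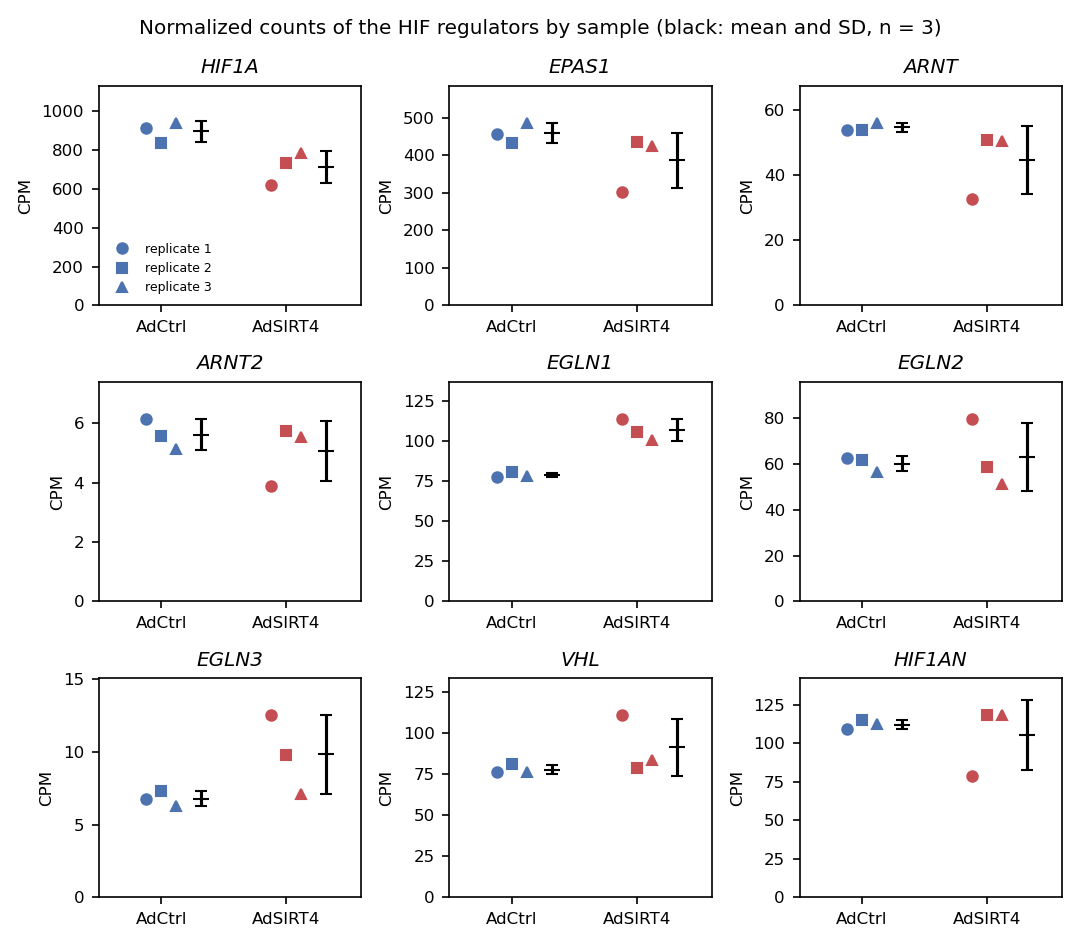
Normalized counts (CPM, TMM-scaled) of the 9 tested members in each sample, circles, squares and triangles marking replicates 1, 2 and 3, with the mean and SD of each group (n = 3) in black. EGLN1 is above all AdCtrl samples in every AdSIRT4 sample and HIF1A and ARNT below, whereas in the other members AdSIRT4 replicate 1 lies outside the AdCtrl range and the other 2 lie within it or close to it, except EGLN3, whose replicate 2 is also well above it.

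Of the HIF-α subunits, HIF1A encodes the α subunit that drives the glycolytic arm of the response (Entrez 3091, chr14:61695513-61748258, hg38). Its level was 912, 838 and 941 CPM in AdCtrl and 620, 734 and 783 CPM in AdSIRT4. Every AdSIRT4 sample was below every AdCtrl sample, replicate 1 being the lowest. The means were 897 ± 53.3 and 712 ± 83.6 CPM (SD, n = 3), a ratio of 0.794. On the log2 scale the difference was -0.33 (SE 0.132, edgeR adjusted p = 0.612). Without AdSIRT4 replicate 1 it was -0.25 (SE 0.061, edgeR adjusted p = 0.0366). With the replicate number as a block it was -0.34 (SE 0.143, edgeR adjusted p = 0.694), and the unadjusted threshold of 0.05 was no longer met. Its exact permutation p, two-sided and with samples relabelled without regard to replicate number, was 0.1, the smallest that 3 against 3 samples allow.

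EPAS1 encodes HIF-2α, the subunit linked to erythropoietin in renal interstitial cells (Entrez 2034, chr2:46297407-46386697). AdCtrl samples had 458, 432 and 487 CPM and AdSIRT4 samples 302, 434 and 424 CPM. Replicate 1 was far below the AdCtrl range, replicate 3 just below it and replicate 2 within it, so the groups overlapped. Its log2 fold change of -0.25 (SE 0.162, edgeR adjusted p = 0.731) became -0.10 (SE 0.0589) without that library. Genes of like length deviated by a median of -0.33 in AdSIRT4 replicate 1 from the other 2 AdSIRT4 libraries, and EPAS1 by -0.51.

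ARNT, the constitutive partner of the α subunits (Entrez 405, chr1:150809713-150876599), was at 53.8, 53.8 and 56.0 CPM in AdCtrl. AdSIRT4 samples were at 32.6, 50.8 and 50.4 CPM, all below AdCtrl, with replicate 1 far below the other two. Its log2 fold change was -0.29 (SE 0.175, edgeR adjusted p = 0.718) with all samples and -0.11 (SE 0.0514, edgeR adjusted p = 0.202) without replicate 1. ARNT2, a paralogue best known from neurons (Entrez 9915, chr15:80404382-80597933), had 6.16, 5.58 and 5.12 CPM in AdCtrl and 3.90, 5.75 and 5.55 CPM in AdSIRT4. Again replicate 1 alone was low, and the log2 fold change moved from -0.14 (SE 0.179) to 0.00 (SE 0.12) without it.

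EGLN1 encodes PHD2, regarded as the main oxygen sensor that sets HIF-α levels (Entrez 54583, chr1:231363756-231422287). Its level was 78.0, 80.6 and 78.6 CPM in AdCtrl and 114, 106 and 101 CPM in AdSIRT4. All AdSIRT4 samples exceeded all AdCtrl samples, and the AdCtrl samples lay close together. Means were 79.1 ± 1.36 and 107 ± 6.66 CPM (SD, n = 3), a ratio of 1.35. This is a log2 fold change of 0.44 (SE 0.0896, edgeR adjusted p = 0.489). It was 0.38 (SE 0.0502, edgeR adjusted p = 0.00283) without AdSIRT4 replicate 1 and 0.43 (SE 0.105, adjusted p = 0.00938) in DESeq2. Leaving out any 1 sample kept the log2 fold change between 0.38 and 0.48. With the trend of each library on gene length removed it was 0.49 (SE 0.0975, edgeR adjusted p = 0.132). Genes of EGLN1's length (4.95 kb) deviated by a median of -0.17 in AdSIRT4 replicate 1, whereas EGLN1 deviated by 0.14. The exact permutation p, computed in the same way, was 0.1. LOC107985360, a transcript that overlaps EGLN1, had counts equal to 3.87, 4.12 and 4.75% of the EGLN1 count in AdCtrl and 1.93, 3.08 and 3.21% in AdSIRT4, and the strand setting of the counting is not given in the sources used here. The promoter of EGLN1 is the one above with ACGTG close to the start, and no factor binding was measured.

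EGLN2 encodes PHD1, the hydroxylase known for little response to hypoxia (Entrez 112398, chr19:40799191-40808434). Its level was 62.5, 61.6 and 56.4 CPM in AdCtrl and 79.8, 58.5 and 51.2 CPM in AdSIRT4. The AdSIRT4 samples lay above, within and below the AdCtrl range. It had a log2 fold change of 0.07 (SE 0.168, edgeR adjusted p = 0.894) with all samples and -0.14 (SE 0.0698, edgeR adjusted p = 0.257) without replicate 1, so that its direction rests on that library. RAB4B-EGLN2, a read-through gene that shares exons with EGLN2, had 109, 41 and 110 counts in AdCtrl and 48, 150 and 635 in AdSIRT4, 15.2% of the EGLN2 count in the last. How reads were divided between these genes cannot be told from the tables. With both added together, the level was 64.5, 62.5 and 58.6 CPM in AdCtrl and 81.0, 60.3 and 59.1 CPM in AdSIRT4.

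EGLN3 encodes PHD3, the EGLN most strongly induced by HIF in many cells (Entrez 112399, chr14:33924227-33951074). Its level was 6.75, 7.30 and 6.25 CPM in AdCtrl and 12.5, 9.79 and 7.09 CPM in AdSIRT4. Replicates 1 and 2 of AdSIRT4 were above all AdCtrl samples, and replicate 3 was within their range. Means were 6.77 ± 0.524 and 9.81 ± 2.73 CPM (SD, n = 3), a ratio of 1.45. The fitted log2 fold change was 0.53 (SE 0.211, edgeR adjusted p = 0.612). It was 0.32 (SE 0.139, edgeR adjusted p = 0.193) without AdSIRT4 replicate 1, and over all fits that left out 1 sample it ran from 0.32 to 0.72. Of the EGLN genes EGLN3 had the largest fitted fold change, at a far lower FPKM than EGLN1 and with a wider spread in AdSIRT4, and the difference between the 2 fold changes was not tested.

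VHL, the substrate receptor of the ligase that binds hydroxylated HIF-α (Entrez 7428, chr3:10141778-10153667), had 76.3, 80.9 and 76.0 CPM in AdCtrl. AdSIRT4 samples had 111, 78.8 and 83.6 CPM, replicate 2 falling within the AdCtrl range. VHL had a log2 fold change of 0.23 (SE 0.143, edgeR adjusted p = 0.72), and 0.06 (SE 0.0528) without replicate 1. In AdSIRT4 replicate 1 VHL deviated by 0.453 from the other AdSIRT4 libraries, whereas genes of like length deviated by a median of -0.215. HIF1AN, the factor-inhibiting hydroxylase (Entrez 55662, chr10:100535943-100559998), had 109, 115 and 112 CPM in AdCtrl and 79.1, 118 and 119 CPM in AdSIRT4. Replicate 1 was below the AdCtrl samples and the other two above them. HIF1AN had a log2 fold change of -0.09 (SE 0.165, edgeR adjusted p = 0.867), 0.07 (SE 0.051) without replicate 1 and 0.07 (SE 0.0854) with the length trend removed. HIF1AN has the greatest length of the members tested, 14.8 kb, at which genes deviated by a median of -0.92 in AdSIRT4 replicate 1, and HIF1AN by -0.58.

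**Figure D3:**
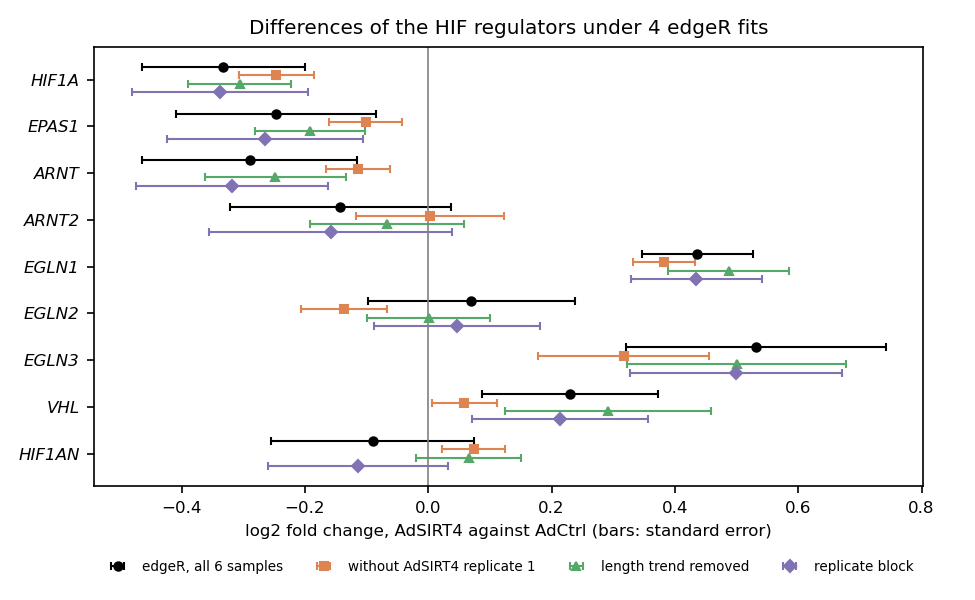
Log2 fold change of AdSIRT4 against AdCtrl for the 9 tested members, with standard errors as bars, in 4 edgeR fits. EGLN1 stays between 0.38 and 0.49 and HIF1A between -0.34 and -0.25, whereas EPAS1, ARNT, VHL and EGLN3 move toward 0 without AdSIRT4 replicate 1 and ARNT2, EGLN2 and HIF1AN change sign.

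Transcripts at the members' loci were few. HIF1A-AS2, an antisense RNA of the HIF1A locus known as aHIF, had at most 2.00 CPM in any sample. Its level was 0.962, 0.683 and 0.856 CPM in AdCtrl (29 to 52 counts) and 1.36, 2.00 and 1.87 CPM in AdSIRT4. All AdSIRT4 samples were higher, as in 9.66% of all genes tested. A relation to HIF1A, which was lower, was not tested, and the strand setting of the counting is not given. The log2 fold change was 1.07 (SE 0.24, edgeR adjusted p = 0.494), and 1.2 without AdSIRT4 replicate 1 (edgeR adjusted p = 0.0122). The antisense genes together had counts of 0.296 to 0.385% of the HIF1A count in AdCtrl and 0.505 to 0.540% in AdSIRT4. HIF1A-AS1 and HIF1A-AS3 had log2 fold changes of -0.20 (edgeR adjusted p = 0.797) and -0.09 (edgeR adjusted p = 0.942), and RAB4B of -0.06 (edgeR adjusted p = 0.952). The read-through RAB4B-EGLN2 had 1.08 (SE 0.711, edgeR adjusted p = 0.731), its replicate 3 in AdSIRT4 being far above the rest. EGLN3-AS1 had at most 2 counts and VHLL at most 3 in any sample.

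The partners of the pathway showed few differences. Of the 4 subunits that form the ligase with VHL, none passed an unadjusted p of 0.05 in either direction, and their median log2 fold change was 0.23 with all samples and -0.09 without AdSIRT4 replicate 1. ELOC (0.27, edgeR adjusted p = 0.773), RBX1 (0.29, edgeR adjusted p = 0.776) and ELOB (0.20, edgeR adjusted p = 0.836) were each highest in that library and below 0 without it, at -0.08, -0.10 and -0.23. Of 18 other partners of HIF-α and the EGLN enzymes, 1 was higher at an unadjusted p of 0.05 and none lower, with a median of 0.14, a share near the 4.43% of all genes that were higher. That gene was AJUBA, a LIM scaffold that can join VHL and EGLN1, at 0.24 (edgeR adjusted p = 0.621), which did not meet the unadjusted threshold with the replicate block (log2 fold change 0.24, SE 0.118). HSP90AA1, a chaperone of HIF-α, had 0.29 (edgeR adjusted p = 0.718) and USP20, a deubiquitinase of HIF-α, had -0.17 (edgeR adjusted p = 0.718).

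Other members of the bHLH-PAS family, the class of transcription factors to which HIF-α and ARNT belong, gave 9 testable genes of 11, with a median log2 fold change of 0.00 and none past an unadjusted p of 0.05. SIM1, which can pair with ARNT and ARNT2, had -0.32 (edgeR adjusted p = 0.677), ARNTL, the clock factor also named BMAL1, had -0.19 (edgeR adjusted p = 0.678), and NPAS4, under 0.5 CPM in every sample, had 0.59 (edgeR adjusted p = 0.731).

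The EGLN enzymes consume 2-oxoglutarate and are inhibited by succinate, fumarate and 2-hydroxyglutarate, so 11 genes that make or remove these were listed. None was higher at an unadjusted p of 0.05 and 2 were lower (3.5% of all genes), with a median of 0.07. Without AdSIRT4 replicate 1 the median was -0.13 and 4 were called lower at an adjusted p of 0.05 (3.34% of all genes). OGDH, which consumes 2-oxoglutarate in the citric acid cycle, had -0.32 (edgeR adjusted p = 0.612). SDHAF2, an assembly factor of succinate dehydrogenase, had 0.43 (edgeR adjusted p = 0.691). With the replicate block OGDH no longer met the unadjusted threshold (log2 fold change -0.32, SE 0.132) and SDHAF2 did (0.40, SE 0.133). Among the 4 genes called lower without that library were SDHA, IDH1 and IDH2, at -0.24, -0.28 and -0.26, chosen here after their values were seen.

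Known HIF targets were counted separately. Of 32 targets outside glycolysis 31 were tested, of which 13 were higher and 1 lower at an unadjusted p of 0.05, and 16 were higher and 2 lower without overlap of the groups. The shares of all genes were 4.43% and 3.5% at that p, and 9.66% and 9.77% without overlap. Their median log2 fold change was 0.25, and 0.28 without AdSIRT4 replicate 1, beside 0.02 and 0.00 over all genes. None passed an adjusted p of 0.05 in edgeR with all samples, 15 were called higher and 2 lower without that library (3.37% and 3.34% of all genes), and DESeq2 called 9 higher (0.542% of all genes). EGLN1 and EGLN3 are targets too but are counted only among the regulators. The lists were chosen with earlier results of these data known, so the counts describe these genes and do not test the pathway.

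NDRG1, a stress-response gene and a widely used HIF target, was at 86.4, 84.5 and 78.8 CPM in AdCtrl and 181, 166 and 152 CPM in AdSIRT4. Every AdSIRT4 sample was well above every AdCtrl sample. The log2 fold change was 1.00 (SE 0.104, edgeR adjusted p = 0.0892), and 0.93 (edgeR adjusted p = 3.32e-05) without AdSIRT4 replicate 1. BNIP3L, a mitophagy receptor, had 95.0, 99.6 and 93.7 CPM in AdCtrl and 144, 134 and 129 CPM in AdSIRT4, a log2 fold change of 0.49 (SE 0.0908, edgeR adjusted p = 0.404). ADM, which encodes the vasodilator adrenomedullin, had 6.66, 5.72 and 7.16 CPM and 13.7, 10.6 and 9.25 CPM, a log2 fold change of 0.77 (SE 0.174, edgeR adjusted p = 0.494). Both were called without replicate 1, at edgeR adjusted p = 0.00155 and 0.0151. DDIT4, an inhibitor of mTORC1 and itself a HIF target, was the 1 gene lower at an unadjusted p of 0.05, at -0.43 (SE 0.106, edgeR adjusted p = 0.494), and was called without replicate 1 at -0.48 (edgeR adjusted p = 0.00546). VLDLR, a lipoprotein receptor, was lower without overlap at -0.19 (edgeR adjusted p = 0.701) and was the other gene called lower without replicate 1, at -0.24 (edgeR adjusted p = 0.0473). VEGFA, the angiogenic target, had 0.12 (edgeR adjusted p = 0.802). These 3 genes are named here after their values were seen.

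Of 21 glycolytic HIF targets, all tested, 7 were higher at an unadjusted p of 0.05 and none lower, with a median log2 fold change of 0.27, and 10 were higher and 1 lower without overlap. Of all genes 4.43% were higher and 3.5% lower at that p, and 9.66% and 9.77% without overlap. Without AdSIRT4 replicate 1 the median was 0.18, and 7 were called higher and none lower at an adjusted p of 0.05 (3.37% and 3.34% of all genes). DESeq2 with all samples called 4 higher (0.542% of all genes). PFKFB4, which makes the activator of phosphofructokinase, had 13.5, 14.4 and 13.9 CPM in AdCtrl and 25.4, 25.2 and 21.4 CPM in AdSIRT4. Its paralogue PFKFB3 had 119.8, 128 and 120.0 CPM and 184, 223 and 257 CPM. PDK1, the kinase that restrains pyruvate dehydrogenase, had 32.5, 32.3 and 32.2 CPM and 47.3, 52.7 and 49.3 CPM. In these 3 genes all AdSIRT4 samples were above all AdCtrl samples. The log2 fold changes were 0.78 (SE 0.106), 0.85 (SE 0.137) and 0.62 (SE 0.0884), with edgeR adjusted p = 0.239, 0.307 and 0.239. Without replicate 1 the edgeR adjusted p were 0.00127, 3.32e-05 and 0.000309.

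**Figure D4:**
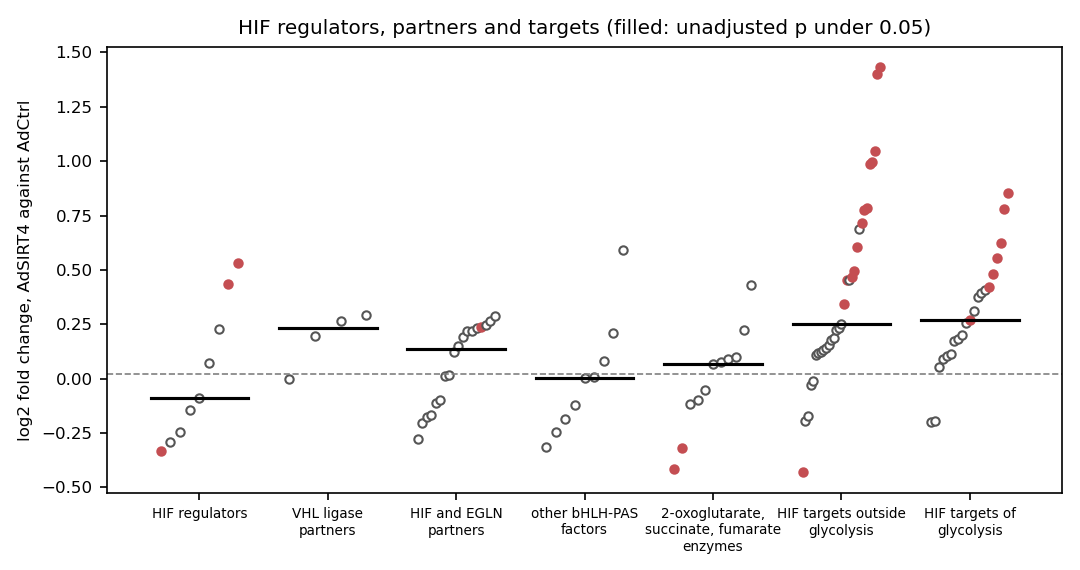
Log2 fold change of AdSIRT4 against AdCtrl for each tested gene of the regulators and 6 related lists, filled where the unadjusted edgeR p was under 0.05, with list medians as black lines and the median of all genes (0.02) dashed. The regulators spread from -0.33 to 0.53 around a median of -0.09. Both target lists lie mostly above 0, with medians of 0.25 and 0.27 (0.28 and 0.18 without AdSIRT4 replicate 1, not drawn).

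**Figure D5:**
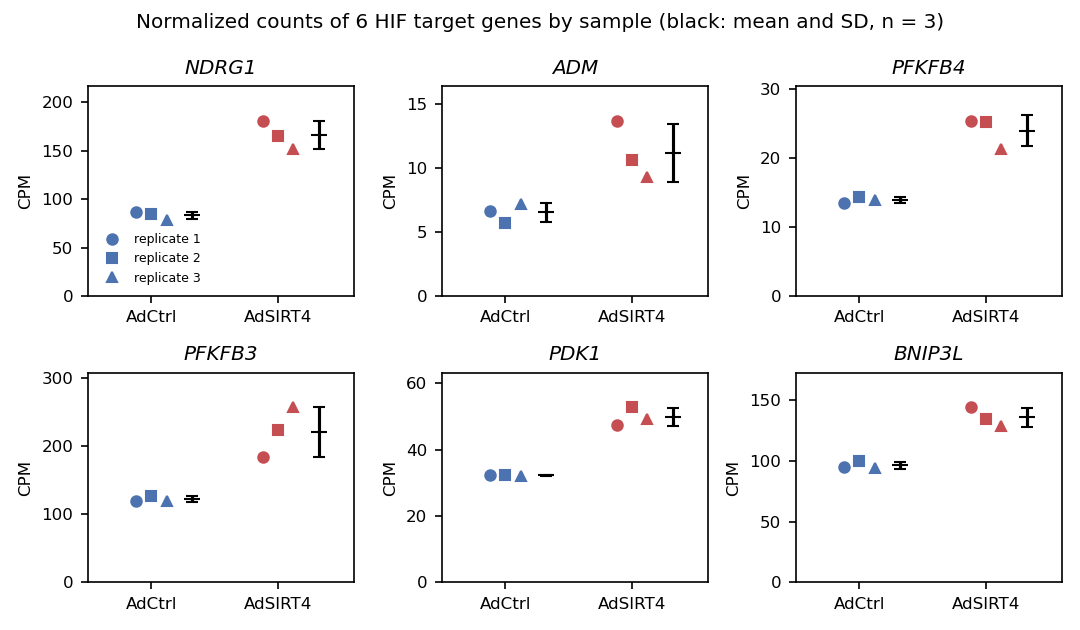
CPM by sample of 6 HIF targets, the 3 with the smallest unadjusted edgeR p in each of the 2 target lists. The mean and SD of each group (n = 3) are in black. All AdSIRT4 samples lie above all AdCtrl samples in each of the 6, NDRG1 at 152 to 181 against 78.8 to 86.4 CPM. The genes were chosen by p, so this separation describes them and is no test.

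An ACGTG or GCGTG core was found before a start in 23 of the 26 targets outside glycolysis with a matched promoter and in 18 of 20 glycolytic targets, beside 5 of 8 regulators and 47.4% of all 27305 genes with a promoter. A match describes these letters only and is no measured binding site. Both target lists were made of known HIF targets, so their higher share is no result of these expression data and no test. Base composition and the number of starts per gene were not matched.

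In bulk RNA, fewer cells of a type and less RNA per cell cannot be told apart. The part that the shift of AdSIRT4 replicate 1 with gene length plays in the values that moved without that library was not tested.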

How the data were processed

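Poly-A RNA of 6 HK2 samples, 3 AdCtrl and 3 AdSIRT4, was analysed from tables made by the authors. The deposited count table holds whole-number counts of 38100 genes, not normalized. The second deposited table names no unit and was read as FPKM from its values, which for 8734 of 14605 genes were proportional within 5% to count over library size. Gene length was inferred as the median over samples of count per library total divided by that value. The submitters' processing notes name hg38, fastp 0.21.0, HISAT2 2.1.0, StringTie 2.1.5 and DESeq2 1.30.1. The counting step and its strand setting are not given in the sources used here. Groups followed the sample titles.

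Counts were tested with edgeR 4.0.16 (TMM, filterByExpr with a minimum count of 10, quasi-likelihood, Benjamini-Hochberg over 17720 genes) in R 4.3.3, AdSIRT4 against AdCtrl without a block. CPM used the same TMM factors. The SE given with edgeR values was calculated as the absolute log2 fold change over the square root of the quasi-likelihood F. Alternatives were DESeq2 1.42.0, RLE scaling, other filters, limma 3.58.1 on log2(FPKM + 1) or log2(FPKM + 0.1), voom with sample weights, removal of each library's trend on gene length, the replicate block and leaving out each sample. Scripts were tested on simulated data. The members and lists were chosen with earlier results of these data known. Named from each list were the 3 genes with the smallest unadjusted p and all with an adjusted p under 0.05, and for each member the 2 genes nearest in pattern. Some items that these rules select are not reported here. Gene positions and promoters came from RefSeq (GRCh38.p14).

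Deviations from the group means correlated over genes at 0.178, 0.159 and 0.176 between samples of the same replicate number. Between other samples the correlations ran from -0.188 to 0.0298. These correlations are low and not independent, since deviations within a group share its mean. The replicate block was run as an alternative only, and whether the numbers pair the samples was not tested.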

Additional observations from a re-analysis of the deposited data

How the results depend on the processing

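The log2 fold changes of HIF1A, EPAS1, ARNT, EGLN1, EGLN3 and VHL kept their direction under all 18 alternatives run for each. EGLN1 also passed an adjusted p of 0.05 in DESeq2, voom with sample weights and without AdSIRT4 replicate 1, and HIF1A in the last 2. Over all genes, 2 were called in the main test, 122 in DESeq2, 5 with genes of at least 1 count, 4 with at least 10 counts in every sample, 12 with the length trend removed and 1685 in voom with sample weights. limma called 0 on log2(FPKM + 1), 1 on log2(FPKM + 0.1) and 5 with a mean FPKM of at least 1. With the replicate block edgeR called 1, limma on FPKM 0, and edgeR with the length trend removed 6. The block lost the unadjusted calls of HIF1A, AJUBA and OGDH and gained those of RORA and SDHAF2, and changed no other call of the genes listed here at that threshold. Leaving out single samples gave 0 to 1227, the highest without AdSIRT4 replicate 1. Of the HIF regulators DESeq2 called 1, voom 2, and leaving out samples 0 to 2. Voom called 1 partner and 5 of the 2-oxoglutarate, succinate and fumarate enzymes, of which leaving out samples called 0 to 4. Of the targets outside glycolysis 9 were called by DESeq2, 18 by voom, 0 to 17 when leaving out samples, and 1 each with genes of at least 1 count, with a mean FPKM of at least 1, with the length trend removed, and with that and the block. Of the glycolytic targets 4 were called by DESeq2, 8 by voom, 1 with the length trend removed and 0 to 7 when leaving out samples.

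Some directions turned. In voom the log2 fold changes were 0.0054 for ARNT2, -0.0838 for EGLN2, 0.0672 for HIF1AN, -0.0241 for ELOC, -0.0696 for RBX1, -0.179 for ELOB and 0.178 for HIF1A-AS3. With the length trend removed HIF1AN was at 0.0656, and with the block added HIF1AN was at 0.0615 and EGLN2 at -0.00523. Leaving out samples gave ranges of -0.238 to 0.00293 for ARNT2, -0.137 to 0.2 for EGLN2, -0.184 to 0.0741 for HIF1AN, -0.0783 to 0.443 for ELOC, -0.0983 to 0.466 for RBX1, -0.225 to 0.389 for ELOB, -0.193 to 1.46 for RAB4B-EGLN2, -0.473 to 0.221 for RAB4B and -0.271 to 0.201 for HIF1A-AS3. The cause of these turns was not tested. Whether depth limited the tests of the members was not examined, and HIF3A had too few counts to test.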

Other observations

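The FPKM of EGLN1 divided by that of HIF1A was 0.0777, 0.0874 and 0.0758 in AdCtrl and 0.167, 0.131 and 0.117 in AdSIRT4, a ratio chosen after the values were seen and not tested. The 3 EGLN genes summed to 44.1, 43.4 and 43.2 FPKM in AdCtrl and 56.0, 49.3 and 45.0 FPKM in AdSIRT4. EGLN1 made up 35.9, 36.8 and 38.3% of that sum in AdCtrl and 38.2, 43.7 and 46.4% in AdSIRT4. HIF1A stood to EPAS1 at 2.68, 2.58 and 2.57 in AdCtrl and 2.79, 2.23 and 2.43 in AdSIRT4.

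Likeness of pattern over the 6 samples was measured as the root mean square difference of mean-centred log2 CPM, a description with no test. Nearest to EGLN1 were BNIP3L (0.0336) and RIN2 (0.0376), BNIP3L being a HIF target listed in the report. HIF1A was nearest to FUT10 (0.0314) and OGDH (0.0322), and EGLN3 to UFSP1 (0.0634) and PPP1R14B-AS1 (0.0694). EPAS1 lay nearest to AASS (0.0213) and PTGFRN (0.0233), ARNT to MID1 (0.014) and EPB41L2 (0.0182), and ARNT2 to ACTN4 (0.0444) and MSI2 (0.0489). EGLN2 lay nearest to BIN1 (0.0173) and TMEM53 (0.0189), VHL to LIPT2-AS1 (0.0223) and GTPBP6 (0.0223), and HIF1AN to PLXNB1 (0.0173).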
